A study of Mus musculus with 2 samples.

Results

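The genes described are 5 subunits of the phagocyte NADPH oxidase, Cybb, Cyba, Ncf1, Ncf4 and Rac2. They were chosen by gene symbol from the 32285 genes of the count tables and not by their values, though earlier results of these data were known. The genes were followed in spleen cells of mice that had been sorted by flow cytometry for CD45.2, an allelic form of the leukocyte antigen CD45, and for CD11b, an integrin subunit of neutrophils, monocytes and some other leukocytes. The cells had been viably frozen before sorting. One library is labelled as treated with High B12 and the other as treated with Low B12, vitamin B12 being the cofactor of methionine synthase. The series title places the work in Tet2-deficient blood formation, while the labels of these libraries state no genotype, strain, age, dose, length of treatment or number of mice. With 1 library in each condition there was no test between conditions. Every interval below is at 95% and covers counting error only, and an effect of B12 cannot be told apart from any other difference between the libraries.

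The phagocyte oxidase moves electrons from NADPH across a membrane to oxygen and so makes superoxide, which neutrophils and monocytes use against ingested microbes. Cybb encodes its catalytic chain, and Cyba the smaller membrane partner that holds that chain stable. In resting cells Ncf1 and Ncf4 encode parts of a cytosolic complex that joins the membrane pair upon activation, Ncf1 as the organizer that is phosphorylated and Ncf4 as the subunit that binds a phosphoinositide on phagosomes. Rac2 is the small GTPase of blood cells that completes the active enzyme. Loss of CYBB, CYBA, NCF1 or NCF4 in humans causes chronic granulomatous disease, in which phagocytes fail to kill certain bacteria and fungi.

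All 5 gene IDs occur in the GENCODE M21 annotation, from which the GRCm38 positions come. Cybb lies on the minus strand of chrX:9435252-9487771, Cyba on the minus strand of chr8:122424776-122432930 and Ncf1 on the minus strand of chr5:134220053-134229625. Ncf4 lies on the plus strand of chr15:78244801-78262580 and Rac2 on the minus strand of chr15:78559167-78572783. RefSeq promoter windows of GRCm38.p6 were given for 3 of the 5 members, Cybb, Cyba and Ncf1. The 250 bases before each start are shown for these 3, since no window was at hand for Ncf4 and Rac2. The RNA of these 3 genes differed in how it changed between neutrophil classes and monocytes, as described further down. Capitals mark GGAA, the core letters that ETS factors such as the PU.1 protein of Spi1 bind, and CCAAT, with TTCC and ATTGG as the same motifs on the other strand. The windows are chrX:9469325-9469574, chr8:122432941-122433190 and chr5:134229626-134229875, all on the minus strand and written 5′ to 3′. The Cybb window precedes an internal start, that of 1 of 5 annotated transcripts, 18447 bases inside the outermost start of the span given above.
Cybb: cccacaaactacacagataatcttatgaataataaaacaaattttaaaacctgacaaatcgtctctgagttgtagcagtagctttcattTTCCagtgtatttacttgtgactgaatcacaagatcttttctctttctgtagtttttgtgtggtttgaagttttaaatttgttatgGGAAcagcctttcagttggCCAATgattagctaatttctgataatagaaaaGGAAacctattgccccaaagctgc
Cyba: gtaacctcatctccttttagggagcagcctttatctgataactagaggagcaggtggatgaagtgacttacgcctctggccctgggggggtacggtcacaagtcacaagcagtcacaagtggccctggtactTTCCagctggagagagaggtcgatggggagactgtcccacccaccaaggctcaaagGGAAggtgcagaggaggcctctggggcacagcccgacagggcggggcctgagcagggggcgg
Ncf1: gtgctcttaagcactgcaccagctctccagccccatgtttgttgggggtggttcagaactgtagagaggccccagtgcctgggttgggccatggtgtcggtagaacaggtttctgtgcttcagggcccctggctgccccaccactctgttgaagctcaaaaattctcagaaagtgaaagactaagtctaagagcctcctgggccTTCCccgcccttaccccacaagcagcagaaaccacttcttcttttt
The Cybb window held 34% G and C, against 60% in the Cyba window and 54.4% in the Ncf1 window. GGAA on either strand occurred 3 times in the Cybb window, 2 times in that of Cyba and 1 time in that of Ncf1, and 93.4% of 32851 windows of this length hold it. CCAAT occurred 1 time, in the Cybb window, 56 bases before the start, and 33.8% of all windows hold it. A match is a run of letters and not a shown binding site.

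From 46994991 UMIs (unique molecule counts) the high-B12 library yielded 6748 cells, and from 48884220 UMIs the low-B12 library yielded 6510. Cells were placed in classes by RNA gates, in the order progenitor (Elane, Mpo and Prtn3), neutrophil (S100a8 and S100a9 at 5% of UMIs or more), B cell, NK cell, conventional dendritic cell (cDC) and monocyte (Csf1r). Neutrophils with Camp, Ngp and Ltf, the secondary granule RNAs, at 1% of UMIs or more are called immature and the rest mature. Mature neutrophils numbered 1928 with high B12 and 677 with low B12. In the same order there were 723 and 253 immature neutrophils, 35 and 19 progenitors, 836 and 1262 monocytes, 402 and 478 cDC, 844 and 946 NK cells, and 673 and 1852 B cells. The neutrophil gate held all 10 listed neutrophil markers at 50 CPM (UMIs scaled to a common total) or more in both neutrophil classes of both libraries. The B gate held all 6 B cell markers and the NK gate all 6 NK markers at that level, and the monocyte gate held 8 of 10 monocyte markers in the high-B12 and 9 of 10 in the low-B12 library. The cDC gate held 6 of 8 cDC markers in both libraries. The progenitor gate held 3 of 5 progenitor markers, with Cd34 at 0 in both libraries, and its basophil and mast cell markers summed to 420 CPM with high B12 and 0 with low B12. Scrublet called 4.51% of high-B12 and 6.96% of low-B12 cells doublets, which were kept. Levels below are CPM of the UMIs summed over a class. Since UMIs of this assay mark transcript 3′ ends and capture differs between genes, levels are compared between classes and libraries and not between genes.

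Cybb RNA was far lower in mature than in immature neutrophils, whereas that of the other subunits differed by less than 2-fold between these classes on the scale of all UMIs. In mature neutrophils Cybb stood at 110 CPM in the high-B12 library (102 to 118, 1928 cells) and 146 CPM in the low-B12 library (130 to 163, 677 cells). In immature neutrophils it stood at 1330 CPM in the high-B12 library (1307 to 1354, 723 cells) and 1469 CPM in the low-B12 library (1429 to 1509, 253 cells). Mature neutrophils thus had 12.1-fold less Cybb than immature ones in the high-B12 library (11.2 to 13.0) and 10.1-fold less in the low-B12 library (8.97 to 11.3). Of 1761 genes at 100 CPM or more, 26 (1.48%) were lower in mature neutrophils by at least the smaller of these Cybb differences in both libraries. Cybb is among the 26, and Camp, Ngp and Ltf, which split the classes, were not left out of the count.

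Much of the Cybb RNA counted in mature neutrophils came from few cells. In the low-B12 library 10 of 677 mature neutrophils held 53.8% of its UMIs, and in the high-B12 library 10 of 1928 held 27.9%. A UMI of a gate gene of the B, NK, cDC or monocyte class was present in 29.5% of high-B12 and 32.9% of low-B12 mature neutrophils. Without those cells, which also left out 12.7% and 31.6% of immature neutrophils, Cybb was 21-fold lower in mature than in immature neutrophils with high B12 and 29.5-fold lower with low B12. Leaving out Scrublet doublets gave 17.1-fold and 29.6-fold, and weighting every cell alike gave 21.2-fold and 21.1-fold. Across the settings tried for this contrast the Cybb difference ranged from 6.65-fold to 29.6-fold, the lowest with the neutrophil gate at 3% in the low-B12 library.

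Cybb levels followed the share of granule RNA. In the high-B12 library Cybb was 66.4 CPM in neutrophils with 0 to 0.01% of UMIs from Camp, Ngp and Ltf and 98.4 CPM at 0.01 to 0.1%. It was 230 CPM at 0.1 to 0.3% and 557 CPM at 0.3 to 1%. It then reached 653 CPM at 1 to 3%, 1387 CPM at 3 to 10% and 1359 CPM above 10%. The level therefore stood higher in each bin than in the one below it up to 10% of granule RNA, where it levelled off. In the low-B12 library Cybb was 91.3 CPM at 0 to 0.01% and 151 CPM at 0.01 to 0.1%. It was 1108 CPM at 1 to 3%, 1479 CPM at 3 to 10% and 1540 CPM above 10%. The bins in between held 5 and 8 low-B12 cells, at 654 and 1115 CPM, too few to place the step.

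**Figure D1:**
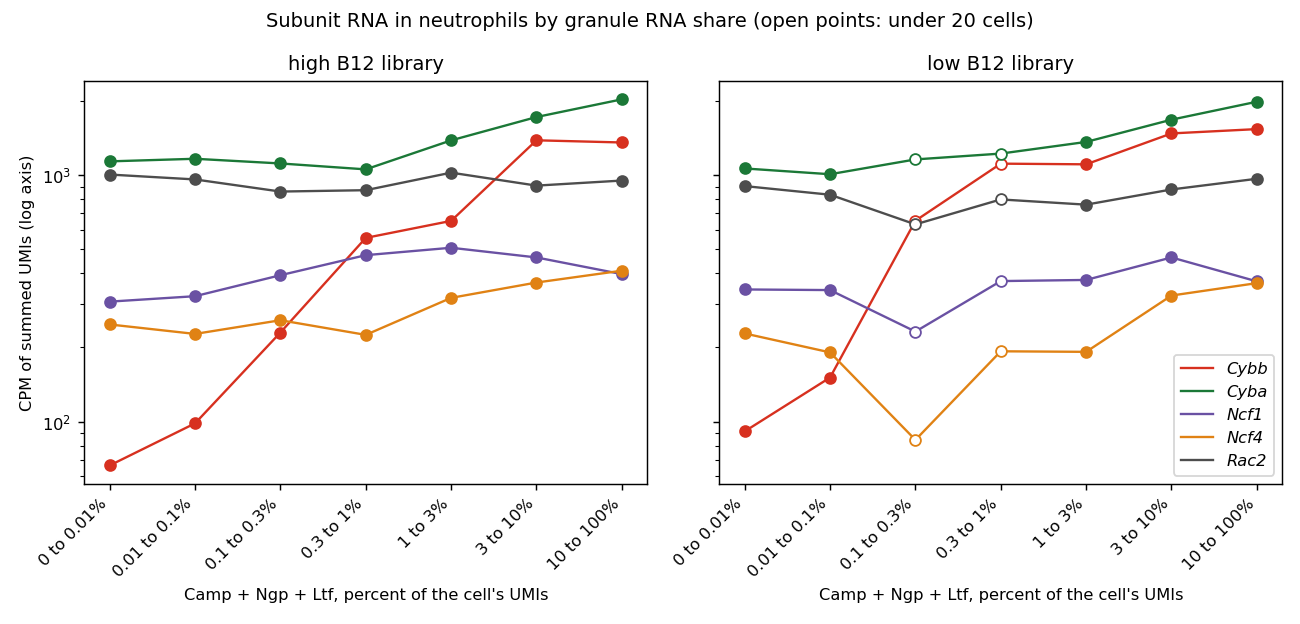
CPM of the 5 subunits (log axis) in neutrophils binned by the percent of UMIs from Camp, Ngp and Ltf, high-B12 library left and low-B12 library right, with open points for bins of under 20 cells. Cybb climbs from 66.4 to 1387 CPM in the high-B12 library, while Rac2 keeps between 859 and 1025 CPM.

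Along the same bins Cyba ranged from 1057 to 2034 CPM in the high-B12 library and from 1010 to 1989 CPM in the low-B12 library. Ncf1 ranged from 307 to 508 CPM in the high-B12 library, highest at 1 to 3% of granule RNA, so its top did not lie in the bin with most granule RNA. Rac2 had no such slope, at 1007 CPM in the lowest and 952 CPM in the highest bin of the high-B12 library and 904 and 968 CPM in those of the low-B12 library.

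Of the 5 members, 3 (Cybb, Cyba and Ncf4) were lower in mature than in immature neutrophils by the size set to count in both libraries, the higher level being at least 25% above the lower one, against 14.9% of tested genes at 100 CPM or more. None of the 5 was higher by that much, against 65.1% of those genes. Cyba stood at 1145 CPM in mature and 1813 CPM in immature neutrophils of the high-B12 library, or 0.632 times as much (0.615 to 0.649). In the low-B12 library the Cyba values were 1066 and 1755 CPM, or 0.607 times as much. Ncf4 had ratios of 0.630 with high B12 and 0.668 with low B12, and Ncf1 ratios of 0.733 and 0.800. Rac2 stood at 978 CPM in mature and 931 CPM in immature high-B12 neutrophils and at 885 and 896 CPM in low-B12 ones, ratios of 1.05 and 0.989 that became 0.696 and 0.700 when the gate genes were taken out of the total. On that total Cybb was 18.2-fold lower in mature high-B12 and 14.2-fold lower in mature low-B12 neutrophils. Cyba was 2.39-fold and 2.33-fold, Ncf1 2.06-fold and 1.77-fold, and Ncf4 2.40-fold and 2.11-fold lower. All 5 members were then past the set size in both libraries. The share of all genes past it was not taken on this total, so that count has no background. Over the alternatives run the count of members lower lay between 3 and 5. Mature neutrophils had a median of 3084 UMIs with high B12 and 2709 with low B12, against 11791 and 11808 in immature ones. Per cell, all 5 members therefore had fewer UMIs in mature neutrophils, Rac2 with 3.47 against 12.1 in the high-B12 and 2.81 against 12.5 in the low-B12 library. Less RNA per cell and less capture per cell cannot be told apart here.

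On the scale of all UMIs, both membrane subunits were higher, and Ncf1 and Rac2 lower, in monocytes than in mature neutrophils. Cybb stood at 1215 CPM in monocytes of the high-B12 library (1189 to 1240) and 1406 CPM in those of the low-B12 library (1383 to 1429). That was 11-fold above mature neutrophils in the high-B12 library (10.2 to 11.9) and 9.63-fold in the low-B12 library (8.61 to 10.8), and 19.6-fold and 27.2-fold without cells holding another class's gate RNA. Cyba stood at 1730 CPM in high-B12 and 1620 CPM in low-B12 monocytes, 1.51-fold and 1.52-fold above mature neutrophils.

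The organizer Ncf1 went the other way, with 106 CPM in monocytes and 325 CPM in mature neutrophils of the high-B12 library, 0.328 times as much (0.301 to 0.356). The low-B12 ratio was 0.331 (0.301 to 0.364). Rac2 stood at 351 CPM in high-B12 and 333 CPM in low-B12 monocytes, ratios to mature neutrophils of 0.359 and 0.376. Ncf4 was closer, with ratios of 0.926 (0.863 to 0.992) for high B12 and 0.733 (0.661 to 0.814) for low B12. So 2 of 5 members were higher in monocytes by the set size in both libraries, against 42.4% of genes at 100 CPM or more, and 2 of 5 were lower, against 38.2%. With the gate genes out of the total Ncf4 was also lower past that size, at ratios of 0.783 and 0.647, which made 3 of 5. The share of all genes past that size was not taken on this total. Per cell, monocytes had 0.799 and 0.839 times the Ncf1 UMIs and 0.876 and 0.953 times the Rac2 UMIs of mature neutrophils, high B12 first. Ncf4 was higher in monocytes per cell, at 2.26 and 1.86 times, with Cyba at 3.69 and 3.85 and Cybb at 26.9 and 24.4 times. Monocytes had medians of 9128 UMIs with high B12 and 7948 with low B12.

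**Figure D2:**
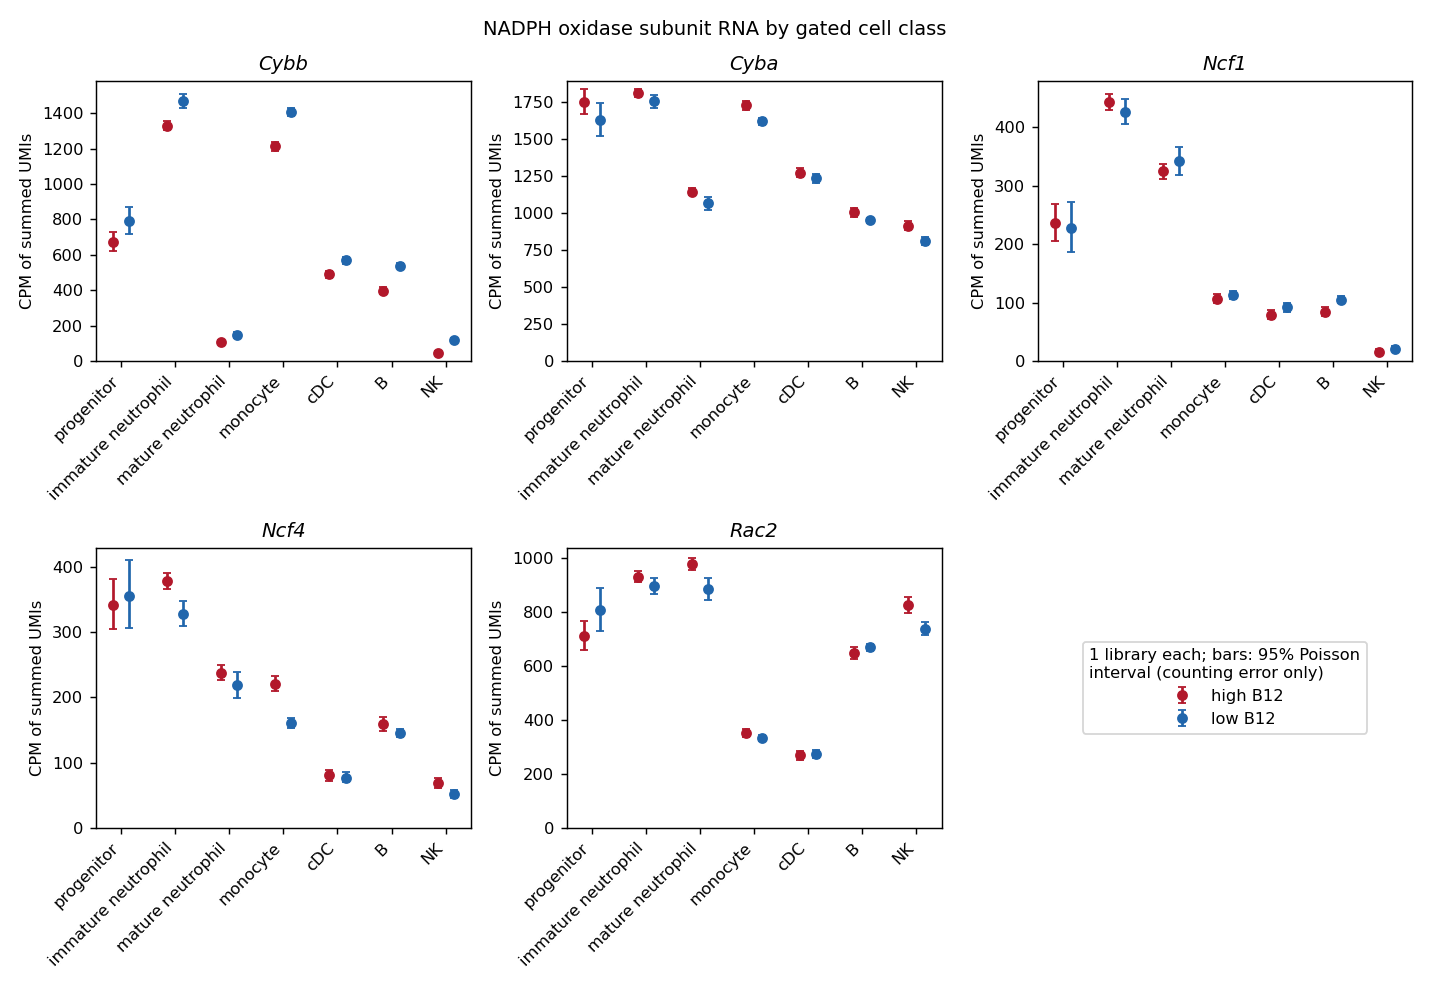
CPM of summed UMIs for each subunit in 7 gated classes, high-B12 library in red and low-B12 library in blue, 1 library each, with 95% Poisson intervals. Cybb is at 1215 CPM or more in immature neutrophils and monocytes and at 110 and 146 CPM in mature neutrophils, while Rac2 is 978 and 885 CPM there.

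Ordered by CPM, Cybb ran immature neutrophil, monocyte, progenitor, cDC, B cell, mature neutrophil and NK cell by the mean of the libraries. The ranges of the libraries overlapped between immature neutrophils and monocytes, between cDC and B cells, and between mature neutrophils and NK cells. In cDC it stood at 490 CPM with high B12 and 570 CPM with low B12, and in progenitors at 675 and 791 CPM. Cyba had the narrowest spread over classes, from 916 and 811 CPM in NK cells to 1813 and 1755 CPM in immature neutrophils. In barcodes under 100 UMIs, mostly free RNA, Cyba was at 1665 CPM with high B12 and 1952 CPM with low B12. Those values exceed its levels in mature neutrophils, cDC, B cells and NK cells. Ncf1 was at 172 and 139 CPM in such barcodes, above its monocyte, cDC, B cell and NK levels. The part of free RNA in the class levels was not tested. Ncf1 ranged from 15.6 and 20.5 CPM in NK cells to 443 and 427 CPM in immature neutrophils. Ncf4 was lowest in NK cells, at 68.5 CPM with high B12 and 51.4 CPM with low B12. Rac2 in NK cells, at 825 and 738 CPM, overlapped with its progenitor level and lay far above that of monocytes, and it was lowest in cDC, at 268 and 272 CPM. Ncf1 also stood well above its NK level in B cells, 5.41-fold with high B12 and 5.14-fold with low B12, and Ncf4 2.32-fold and 2.83-fold. Monocytes exceeded cDC most for Cybb, 2.48-fold and 2.47-fold, and Ncf4, 2.76-fold and 2.09-fold. Immature neutrophils exceeded progenitors 1.97-fold and 1.86-fold for Cybb and 1.88-fold and 1.89-fold for Ncf1, while Cyba differed by 1.04-fold and 1.08-fold.

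B cells of this CD11b sort carried Cybb at 398 CPM with high B12 and 539 CPM with low B12, 8.44-fold and 4.49-fold above NK cells. After every cell was thinned to 2000 UMIs, a Cybb UMI was found in 45.2% of high-B12 and 56.3% of low-B12 B cells, against 3.04% and 4.63% of NK cells, a class that should lack it. In mature neutrophils the thinned shares were 9.34% and 8.92%, above the NK shares. Before thinning, the mature neutrophil shares were 13.1% and 12.7% and the NK shares 5.09% and 6.98%. Median depths were 3084 UMIs in high-B12 and 2709 UMIs in low-B12 mature neutrophils, and 4478 and 4216 UMIs in NK cells. Thinning left out 151 high-B12 and 94 low-B12 mature neutrophils, and 54 and 39 NK cells. In barcodes under 100 UMIs, which hold mostly free RNA, Cybb was at 338 CPM with high B12 and 382 CPM with low B12.

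The share of cells with UMIs of both Cybb and Cyba was taken at 2000 UMIs per cell. It was 83.2% in high-B12 and 83.9% in low-B12 immature neutrophils, and 80.4% and 83.0% in monocytes. In mature neutrophils it was 7.99% (6.77 to 9.35) in the high-B12 and 7.89% (5.83 to 10.4) in the low-B12 library, with overlapping intervals. B cells had 38.9% and 46.6%, cDC 46.5% and 50.9%, and NK cells 2.66% and 3.86%. All 5 subunits were seen together in 1.01% of high-B12 and 1.37% of low-B12 mature neutrophils, and in 21.1% and 17.3% of immature ones. At this depth Cyba alone was found in 77.2% to 97.1% of cells over the 7 classes and libraries. The joint share with Cybb therefore largely follows detection of Cybb alone. That was 85.9% in high-B12 and 88.0% in low-B12 immature neutrophils, and 9.34% and 8.92% in mature ones. Shares expected from separate detection were not taken, so the joint shares do not show pairing of subunits. The part of free RNA in these shares was not tested.

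**Figure D3:**
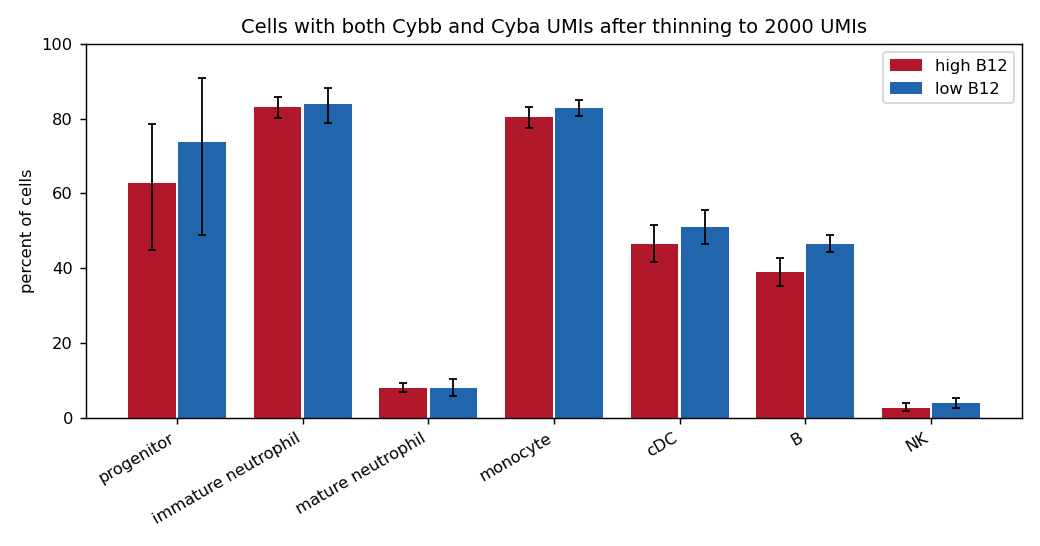
Percent of cells with at least 1 UMI each of Cybb and Cyba after thinning to 2000 UMIs, with exact binomial intervals, high-B12 library in red and low-B12 library in blue. Immature neutrophils and monocytes lie above 80%, mature neutrophils at 7.99% and 7.89%.

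Between the libraries, at the size of 25%, 1 of 5 members passed in mature neutrophils, where 20.9% of genes at 100 CPM or more did so. In monocytes 1 of 5 passed, against 23.2%. In B cells 1 of 5 passed, against 22.2%, and in NK cells 3 of 5, against 32.7% of all tested genes, since Ncf1 and Ncf4 lie under 100 CPM there. None passed in immature neutrophils or progenitors, where 32.7% and 30.1% of genes at 100 CPM or more did, or in cDC, where 27.4% of all tested genes did. Over all cells together the ratio was 1.53 for Ncf1 and 1.45 for Ncf4. Within the 7 classes Ncf1 ratios lay between 0.762 and 1.04 and Ncf4 ratios between 0.961 and 1.38, and in cells outside all gates they were 1.26 and 1.23. The high-B12 library held 28.6% mature neutrophils against 10.4% in the low-B12 library.

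Cybb was lower in the high-B12 library in B cells and monocytes under every alternative run, and its direction changed under at least 1 alternative in each of the other 5 classes. In B cells it stood at 398 CPM with high B12 (380 to 416) and 539 CPM with low B12 (527 to 552). The ratio, always high over low here, was 0.737 (0.701 to 0.775), past the set size in the direction that 17.8% of genes at 100 CPM or more took. It was 0.754 (0.712 to 0.799) in B cells with a UMI of Sox5 or Cacna1e and 0.689 (0.623 to 0.762) in the others, a split made after the data were seen. The 8 macrophage markers summed to 257 CPM in high-B12 and 372 CPM in low-B12 B cells, with 1 of 8 at 50 CPM or more in each, and the 10 monocyte markers to 392 and 447 CPM, with 2 of 10 in each and none of either list at 0. Their part in the B cell ratio was not tested. In monocytes the Cybb ratio was 0.864 (0.841 to 0.887), in classical monocytes 0.885 (515 and 554 cells) and in nonclassical ones 0.806 (97 and 354 cells). The B cell log2 ratio lay between -0.52 and -0.33 and the monocyte one between -0.27 and -0.13 over the alternatives run. In immature neutrophils the ratio was 0.906, and its log2 of -0.14 became 0.12 under scaling by the median gene.

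In mature neutrophils the Cybb ratio was 0.754 (0.660 to 0.863), its log2 -0.41, in the direction that 17.9% of genes took. This direction did not hold: the log2 ratio was 0.61 without Scrublet doublets and 0.26 without cells holding another class's gate RNA. With those cells left out, Cybb stood at 62.8 CPM with high B12 and 52.3 CPM with low B12, a ratio of 1.20 (0.913 to 1.60). In NK cells the ratio was 0.393, with 47.1 CPM with high B12 and 120 CPM with low B12, and 10 cells held 68.9% and 39.9% of these UMIs. Its log2 of -1.35 became 0.21 and 0.89 under the same exclusions. Monocyte markers summed to 1003 CPM in high-B12 NK cells, with 2 of 10 at 50 CPM or more, and to 1144 CPM in low-B12 NK cells, with 4 of 10. In mature neutrophils they summed to 358 and 418 CPM, and the 6 B cell markers to 151 and 245 CPM, none of either list at 0. The 8 cDC markers summed to 604 CPM in high-B12 and 1328 CPM in low-B12 NK cells, with 3 of 8 at 50 CPM or more in each and none at 0, and to 817 and 1138 CPM in mature neutrophils, with 2 and 3 of 8 at that level and Xcr1 at 0 in the low-B12 library. These sums were lower in the high-B12 library. Other lists went the other way. The 10 neutrophil markers in NK cells summed to 459 CPM with high B12 and 253 CPM with low B12. The 6 NK markers in mature neutrophils summed to 210 and 168 CPM. The part of other-class RNA in these Cybb values was not tested.

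Ncf4 was the member past the set size in monocytes, at 221 CPM in the high-B12 library (210 to 232, 836 cells) and 160 CPM in the low-B12 library (153 to 168, 1262 cells). The ratio was 1.38 (1.28 to 1.48), in a direction that 3.3% of genes at 100 CPM or more took. It was 1.35 (1.24 to 1.48) in classical monocytes and 1.07 (0.857 to 1.34) in nonclassical ones. In monocytes that met neither rule it was 1.49 (1.29 to 1.72, 216 and 335 cells). In the 8 and 19 C1q-expressing cells it was 1.92 (1.02 to 3.55), on 20 and 27 UMIs. The difference between these subsets was not tested. Neutrophil markers in the monocyte gate summed to 642 CPM with high B12 and 549 CPM with low B12, with 3 and 4 of 10 at 50 CPM or more and none at 0, and their part in the Ncf4 ratio was not tested. In barcodes under 100 UMIs Ncf4 stood at 266 CPM with high B12 (249 to 283) and 206 CPM with low B12 (192 to 221), above both monocyte levels and higher in the same library. The part of free RNA in the monocyte ratio was not tested. Without monocytes holding gate RNA of B or NK cells the ratio was 1.35. That exclusion used no neutrophil gene and kept monocytes with cDC gate RNA, so it does not bear on neutrophil RNA in this gate. The log2 ratio of Ncf4 in monocytes lay between 0.30 and 0.54 over the alternatives.

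Cyba ratios lay between 1.03 and 1.13 in the 7 classes and Rac2 ratios between 0.881 and 1.12, all within the set size. Cyba was higher in the high-B12 library in each class, though the immature neutrophil log2 ratio was -0.01 without cells holding another class's gate RNA. Ncf1 was lower in the high-B12 library in B cells, with 84.5 CPM against 105 CPM and a ratio of 0.802 (0.717 to 0.895), which is just inside the set size. Its NK ratio of 0.762 rested on 65 high-B12 and 95 low-B12 UMIs and changed sign under 4 alternatives. The Ncf1 gene overlaps Gtf2ird2 on the other strand at its 3′ end, and Gtf2ird2 itself was at 4.25 to 14.5 CPM in these classes.

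**Figure D4:**
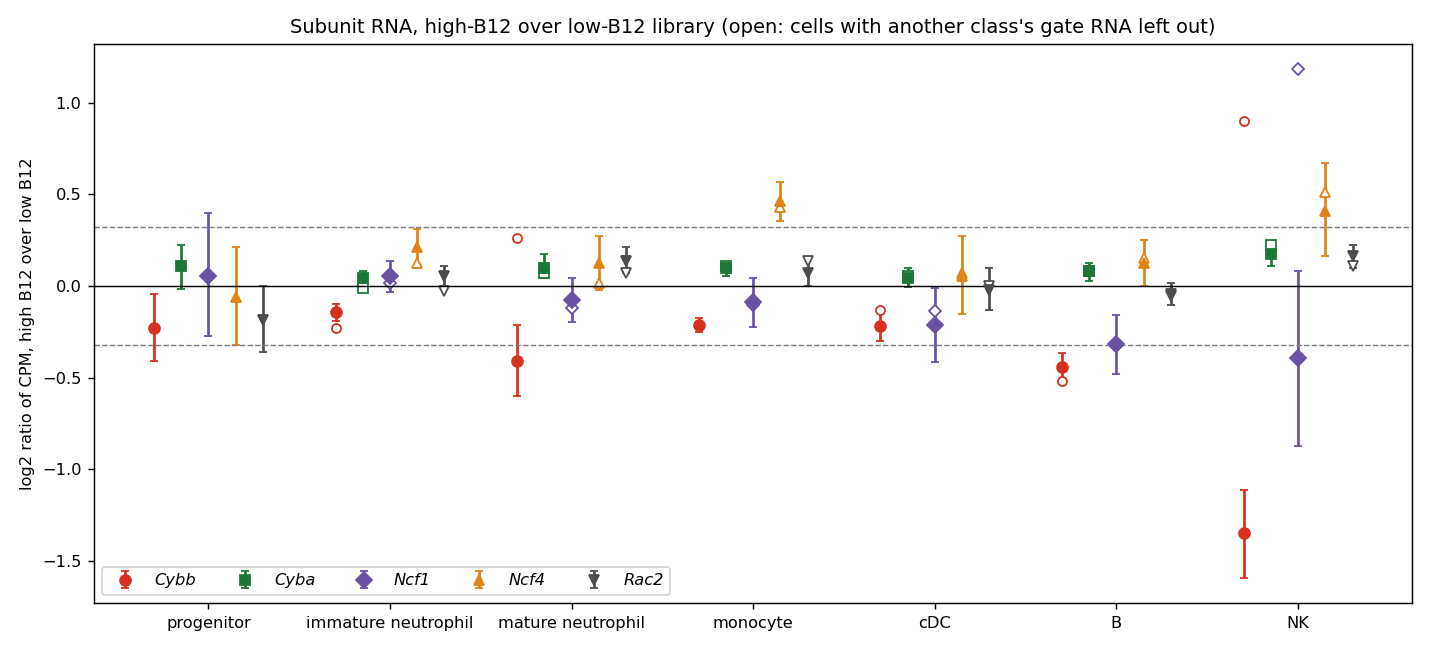
Log2 ratio of levels, high B12 over low, for each subunit in 7 classes with 95% counting intervals, open symbols leaving out cells with gate RNA of another class (not drawn for progenitors). Dashed lines mark the set size of 25%. Ncf4 in monocytes lies at 0.46, Cybb in B cells at -0.44, and the open Cybb symbols of mature neutrophils and NK cells lie above 0.

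Of 14 other listed genes of the oxidase, 4 passed the minimum of 50 UMIs in mature neutrophils and 4 in monocytes. With high B12, 1 was higher and 3 were lower in mature neutrophils, and 0 were higher and 4 lower in monocytes. Their median log2 ratios were -0.02 and -0.14, and none was past the set size in these classes. In B cells 4 were higher and 1 was lower, and in cDC 2 and 2, with none past the size in either. Lower past the size were 1 of 4 in immature neutrophils, 2 of 4 in progenitors and 2 of 5 in NK cells, and none was higher past it. Of all tested genes 43.3%, 26.8% and 24.5% were lower by that much in these classes, in the same order. The 21 listed activators and Rac regulators had a median log2 ratio of -0.16 over 20 tested genes in mature neutrophils and -0.19 over 21 in monocytes, against medians of -0.14 and -0.08 over all tested genes. Past the set size were 0 higher and 7 lower in mature neutrophils, where 8.16% of all tested genes were higher and 27.1% lower, and 0 higher and 6 lower in monocytes, where 8.33% were higher and 21.1% lower. Dock2, an exchange factor for Rac in leukocytes, was at 676 CPM in high-B12 and 944 CPM in low-B12 monocytes, a ratio of 0.716 (0.692 to 0.741). Prkcb, a kinase of the protein kinase C family known to phosphorylate the Ncf1 protein, was at 541 CPM in high-B12 and 683 CPM in low-B12 mature neutrophils and at 257 and 332 CPM in monocytes.

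Genes for removal of superoxide and peroxide had 1 member higher and 4 lower past that size in mature neutrophils and 2 higher and 4 lower in monocytes, of 16 and 19 tested, where, as above, 8.16% and 8.33% of all tested genes were higher and 27.1% and 21.1% lower. Past the size in monocytes were, among others, Hmox1, encoding a heme oxygenase, at 112 CPM with high B12 and 89.4 CPM with low B12, and Cat, encoding catalase, at 33.8 and 46.6 CPM. Txn1, encoding thioredoxin, was at 443 CPM in high-B12 and 355 CPM in low-B12 monocytes, and Gpx4, a lipid peroxide reductase, at 421 and 343 CPM, both inside the set size. Genes of NADPH supply had 0 higher and 2 lower of 9 tested in mature neutrophils and none past the size of 10 in monocytes. Of the myeloid transcription factors, 0 were higher and 2 lower of 9 tested in mature neutrophils, and 1 was higher and 2 lower of 9 in monocytes. Spi1 was at 961 CPM in high-B12 and 966 CPM in low-B12 mature neutrophils and at 641 and 624 CPM in monocytes. Cebpa, a factor of early myeloid cells, was at 80.6 CPM in high-B12 and 123 CPM in low-B12 monocytes, a ratio of 0.654, and Irf1 at 141 and 201 CPM, a ratio of 0.701. The factor past the size the other way in monocytes was Cebpe, named like Hmox1 and Cat after its values were seen, at 6.35 CPM with high B12 and 4.04 CPM with low B12, on 46 and 41 UMIs.

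Likeness was taken among 2743 genes over the 14 combinations of class and library, as Pearson r of log2 CPM plus 10. Cybb had r of 0.82 with Cyba. Cyba was most like the lysozyme gene Lyz2 (0.96) and Tkt (0.95). Ncf1 and Ncf4 were both most like Ckap4 (0.94 and 0.93) and had r of 0.88 with each other. Rac2 was most like Sun2 (0.92), with r of -0.35 to Cybb. The points share libraries and depth, so these values describe and do not test.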

How the data were processed

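Single-cell 3′ RNA libraries of sorted mouse spleen cells were used, 1 for each condition. The authors deposited UMI counts of each gene in each barcode, not normalized and with empty droplets included. They were made with Cell Ranger 4 per the file headers, whereas version 2.1.1 is given by the submitters' processing notes. The kit was a 10x Genomics single cell 3′ v2 kit per the labels' protocols. The build and gene models used for counting are not stated in the labels or headers. Of 32285 gene IDs, 32158 occur in GENCODE M21.

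Cells had at least 500 UMIs and 200 genes and at most 10% mitochondrial UMIs, which left out 524 high-B12 and 303 low-B12 barcodes. The gates were, at first match, at least 10 UMIs of Elane, Mpo and Prtn3, at least 5% of UMIs from S100a8 and S100a9 (split at 1% from Camp, Ngp and Ltf), at least 3 UMIs of Cd79a and Cd79b, 2 of Ncr1 and Klrb1c, 3 of Cd209a, Clec10a and Flt3, and 2 of Csf1r. Both neutrophil classes rest on RNA alone. Within the monocyte gate, classical cells had at least 2 UMIs of Ly6c2 and Ccr2 together and fewer than 2 of Ace and Cd300e. Nonclassical cells had the reverse. Cells with at least 10 UMIs of C1qa, C1qb and C1qc together were set apart as C1q-expressing. The libraries shared 4 cell barcodes. Cells held 90.7% of high-B12 and 91.1% of low-B12 UMIs, with medians of 4327 and 5695 per cell. Doublets were kept, with Scrublet in scanpy 1.11.5 as an alternative.

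UMIs were summed per class and scaled to CPM. Levels have exact Poisson, shares exact Clopper-Pearson and ratios exact conditional binomial intervals (scipy 1.17.1). A gene needed 50 UMIs over both libraries, and a level at least 25% above the other is the size that counts. The background shares were taken over all tested genes and over those at 100 CPM or more. Log2 ratios had 0.5 UMI added to each sum. For likeness 10 CPM were added. The intervals were tested on simulated counts. With 1 library per condition no p-value was computed. The members and gene lists were chosen with earlier results of these data known. Of each related list, genes at 50 CPM or more in mature neutrophils or monocytes were candidates for naming, up to 6 by level and any past 1.5-fold, and those described were picked from these after their values were seen. Alternatives changed the UMI minimum, the mitochondrial limit, the neutrophil gate, doublets, scaling, cell weights, depth and the fold. Cells with another class's gate RNA left out, classical monocytes alone and neutrophils with little granule RNA alone were added after the data were seen. The other-class genes were those of the B, NK, cDC and monocyte gates, with none of the neutrophil or progenitor gates. Monocytes were not left out for cDC gate RNA, nor cDC for monocyte gate RNA. Some related genes are not reported here.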

Additional observations from a re-analysis of the deposited data

How the results depend on the processing

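Of 395 log2 ratios recomputed under the alternatives, 324 moved within their counting interval, 62 moved beyond it, and 9, all of ratios past the set size, changed sign. Some ratios within the set size also crossed 0. Cybb in mature neutrophils went to 0.61 without Scrublet doublets and 0.26 without cells holding another class's gate RNA, and in NK cells to 0.21 and 0.89. Ncf1 in NK cells went to 0.20 and 1.16 under the same exclusions, to 0.24 with every cell weighted alike and to 0.16 in cells thinned to 500 UMIs, where Ncf4 in NK cells went to -0.20. The cause was not tested.

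The count of members past the fold in mature neutrophils, 1 as reported, was 0 with the neutrophil gate at 10%, every cell weighted alike, median scaling, a fold of 1.5, other-class cells left out or granule RNA under 0.1% alone, and 2 after thinning. In immature neutrophils it was 1 (reported 0) with the gate genes out of the total, after thinning and under median scaling. In progenitors it was 3 after thinning and 2 without other-class cells (reported 0), and in cDC 2 after thinning (reported 0). In monocytes it was 0 after thinning and with a fold of 1.5 (reported 1). In NK cells it was 1 without doublets, after thinning and with a fold of 1.5 (reported 3). In B cells it was 2 with the gate at 3%, without doublets or without other-class cells, and 0 with a fold of 1.5 (reported 1). Median scaling adds 0.14 to log2 ratios in mature neutrophils, 0.27 in immature neutrophils and 0.11 in NK and B cells. Progenitors number 35 and 19 cells, which limits their values. No paired analysis was possible because each condition has 1 library.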

Other observations

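Some cells outside all gates had at least 2 UMIs of the neutrophil receptors Csf3r and Cxcr2 together, of either or both. They had too little S100a8 and S100a9 for the neutrophil gate and numbered 702 with high B12 and 295 with low B12. Their Ncf1 was at 311 and 279 CPM and their Rac2 at 750 and 622 CPM, with Cyba at 1208 and 1229 CPM. Cybb stood at 221 CPM in high-B12 and 540 CPM in low-B12 cells of this kind, a ratio of 0.41 (0.359 to 0.468). A Cybb UMI was found in 9.4% and 19.7% of them. The alternatives were not run on these cells, among them the exclusions under which the Cybb ratio of mature neutrophils and NK cells changed direction. Cells outside the gates with Cd3 RNA, 43 with high B12 and 68 with low B12, had Rac2 at 996 and 836 CPM and Cybb at 8.82 and 61.5 CPM, the high-B12 value resting on 2 UMIs. C1q-expressing cells within the monocyte gate, 8 with high B12 and 19 with low B12, had Cybb at 928 and 1173 CPM.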
